A study of Oryctolagus cuniculus with 6 samples.

Results

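Endothelial cells line the blood vessels of the airway wall, and 10 of their genes were described in rabbit tracheal mucosa after high cuff pressure. The set held 4 receptors that catch leukocytes from the blood, SELP, SELE, ICAM1 and VCAM1. It also held 6 genes that mark endothelial identity, PECAM1, TIE1, TEK, KDR, CDH5 and VWF. The genes were matched by symbol and had been chosen by their measured values in this same comparison, as induced adhesion receptors set against stable identity genes. All 10 had a row among the 29587 of the gene table, and all 10 were among the 13724 genes tested. Their differences between the groups are therefore a description, and each adjusted p below gives a gene's place in the fit over all genes, not independent evidence.

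The study compared 3 libraries from New Zealand rabbits in which a cuffed tracheal tube of 3.0 mm was placed at a depth of 13 cm and its cuff held at 35 cmH2O for 2 h with 3 control libraries. Animals in both groups were 3 months old, and no genetic modification is named. The sources used here do not say what was done to the control airways, in particular whether they received a tube, so tube and pressure cannot be told apart. RNA came from the tracheal mucosa as a whole, although the labels also name epithelial cells.

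Leukocytes leave the blood in steps. P-selectin (SELP) and E-selectin (SELE) bind sugars on passing leukocytes and let them roll, after which ICAM1 and VCAM1 hold the cells through their integrins. P-selectin is stored with von Willebrand factor (VWF) in Weibel-Palade bodies of the endothelium and can reach the surface without new transcription, whereas E-selectin is made on demand after cytokine signals. Of the identity genes, CDH5 and PECAM1 encode adhesion molecules at the contacts between endothelial cells, KDR is the main signalling receptor for VEGF, TEK is the angiopoietin receptor and TIE1 is its partner.

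Total counts ranged from 10501734 to 14415754 per library. All values in CPM are read counts relative to library size scaled by TMM factors, which ranged from 0.810 to 0.917 in the high cuff pressure group and from 1.03 to 1.21 in the controls. Over all genes tested the median log2 fold change was −0.01, and it was −0.40 when libraries were scaled by total counts alone, so a difference in level is relative to that choice. In bulk tissue, more cells of a type and more RNA per cell cannot be told apart, and this touches every gene below. The labels do not say that libraries came from separate animals, so p-values measure the spread between these samples.

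SELP was the member with the largest difference. It was measured at 55.1, 115 and 47.8 CPM in high cuff pressure libraries 1, 2 and 3, and at 9.06, 8.04 and 5.98 CPM in control libraries 1, 2 and 3. Every high-pressure library lay above every control, and library 2 stood above the other two of its group. The mean was 72.6 ± 36.8 CPM (SD, n = 3) against 7.69 ± 1.57 CPM, a ratio of 9.44. SELP rose by 3.24 ± 0.40 (SE) on the log2 scale, with an adjusted p of 0.017 in edgeR's quasi-likelihood test. Leaving out high-pressure library 2 gave 2.75 with an adjusted p of 0.060. The call was also lost without control library 2, at an adjusted p of 0.081, and without control library 3, at 0.091.

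ICAM1, the ligand of the leukocyte integrins LFA-1 and Mac-1, was measured at 83.3, 114 and 83.6 CPM under high cuff pressure and at 51.9, 20.4 and 21.4 CPM in the controls. The groups did not overlap, and control library 1 stood nearest to the high-pressure group. The mean of 93.7 ± 17.8 CPM (SD, n = 3) was 3.00 times the control mean of 31.2 ± 17.9 CPM. The log2 difference was 1.59 ± 0.39 (SE), just outside the threshold with an adjusted p of 0.057 in edgeR. Across 15 alternative fits its adjusted p ran from 0.0033 to 0.21 and was past the threshold in 7, among them DESeq2 and the fits without high-pressure library 1 (0.041) or control library 1 (0.045). Epithelium and leukocytes also express ICAM1, so its level in whole mucosa is not endothelial alone.

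SELE showed no common direction. Its levels were 3.65, 4.001 and 7.65 CPM under high cuff pressure and 9.57, 0.772 and 1.60 CPM in the controls, which corresponds to 37, 34 and 101 reads against 112, 12 and 22 reads. The highest level of all 6 libraries was in control library 1 and the lowest in control library 2, so the controls enclosed the whole high-pressure group. The log2 difference was 0.38 ± 0.85 (SE; adjusted p = 0.80 in edgeR). It was 2.11 without control library 1 and turned to −0.12 without control library 2, −0.04 without high-pressure library 3 and near 0 without control library 3. The within-group SD of SELE, 1.298 on the log2 scale, was larger than that of 97.5% of the genes tested, against a median gene of 0.41.

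VCAM1, which binds the integrin VLA-4 on lymphocytes and monocytes, lay in the opposite direction to SELP and ICAM1. It was measured at 5.13, 7.77 and 7.58 CPM under high cuff pressure and at 14.0, 13.3 and 8.16 CPM in the controls. All high-pressure libraries were below all controls, although control library 3 was close to the high-pressure group. The mean was 6.82 ± 1.47 CPM (SD, n = 3) against 11.8 ± 3.18 CPM, a ratio of 0.578. The log2 difference was −0.79 ± 0.34 (SE), with an unadjusted p of 0.048 and an adjusted p of 0.17 in edgeR, so VCAM1 did not pass. It was negative in all 15 alternative fits, from −1.18 to −0.62, and past the threshold in none, with adjusted p from 0.056 to 0.39.

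**Figure D1:**
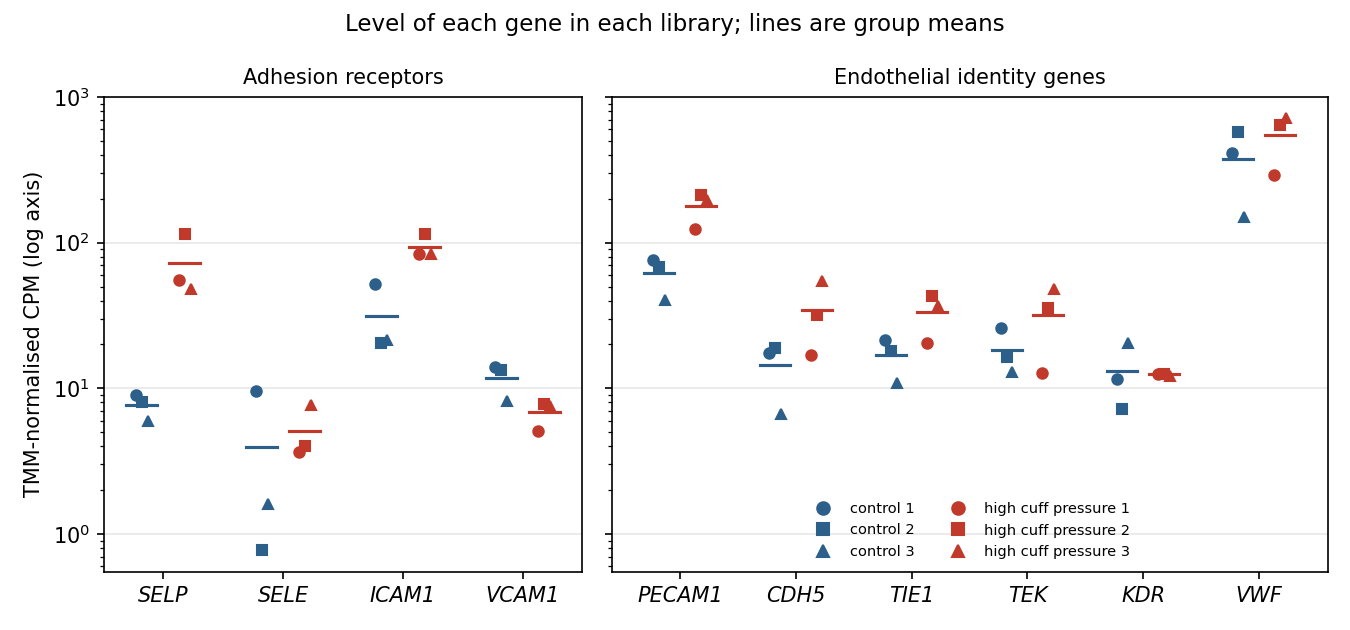
Level of each gene in each library in TMM-normalised CPM on a log axis, with blue symbols for the 3 control libraries, red symbols for the 3 high cuff pressure libraries and lines for the group means. SELP, ICAM1 and PECAM1 have every red symbol above every blue one, VCAM1 has them below, and the other 6 genes overlap.

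SELP and SELE lie near each other on chromosome 13, both on the minus strand in the authors' annotation, for which no genome build is named. SELP spans 21726262 to 21767927 and SELE spans 21851839 to 21860339. The other adhesion receptors lie apart from this pair, VCAM1 on chromosome 13 at 63441289 to 63462347 and ICAM1 on the unplaced scaffold GL018833 at 98071 to 106836, both on the minus strand. Of the neighbours, SELP passed the threshold and SELE did not. The difference between their changes was not tested.

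Among the identity genes PECAM1 stood apart from the label of stability. It was measured at 125, 214 and 198 CPM under high cuff pressure and at 76.0, 68.5 and 40.7 CPM in the controls. The groups did not overlap, with high-pressure library 1 nearest to the controls. The mean was 179 ± 47.5 CPM (SD, n = 3) against 61.7 ± 18.6 CPM, a ratio of 2.90. PECAM1 rose by 1.53 ± 0.32 (SE) on the log2 scale, just inside the threshold with an adjusted p of 0.041 in edgeR. Of the 6 fits that left out a library, the one without high-pressure library 1 kept the call, and the other 5 gave log2 values of 1.31 to 1.72 with the adjusted p above the threshold, up to 0.15.

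Leukocytes and platelets also carry PECAM1, and markers of some of these cells were higher in the same libraries. The 12 neutrophil markers with a row summed to 1500 to 6893 CPM under high cuff pressure and 11.1 to 429 CPM in the controls. S100A9 was the largest part of the high-pressure sums, at 4294, 2272 and 846 CPM. It gave 401 CPM in control library 3 and did not pass, and MMP8 was at 0 in all 6 libraries. The sum of 12 macrophage markers was 225 to 258 CPM against 66.8 to 145 CPM, and 8 of them had a positive log2 difference. C1QA, C1QB, C1QC and CD86 overlapped, with log2 differences from −1.05 to −0.43. The 7 platelet markers with a row summed to 24.1 to 27.2 CPM against 15.4 to 16.1 CPM, most of it ITGA2B, which was higher in all high-pressure libraries at 18.5 to 26.5 CPM against 13.7 to 15.5 CPM without passing. TUBB1 overlapped, GP5, TREML1 and CLEC1B had few reads, and GP1BA and GP9 were at 0 in all 6 libraries. The part of leukocyte RNA in the PECAM1 and ICAM1 levels was not tested.

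CDH5, which encodes VE-cadherin, was measured at 17.1, 31.7 and 54.3 CPM under high cuff pressure and at 17.6, 18.8 and 6.71 CPM in the controls. High-pressure library 1 lay within the control range, and the other 2 lay above it. The log2 difference was 1.26 ± 0.51 (SE; adjusted p = 0.15 in edgeR). TIE1 was measured at 20.4, 43.0 and 36.7 CPM against 21.5, 18.1 and 10.9 CPM, again with high-pressure library 1 inside the control range. Its log2 difference was 0.98 ± 0.37 (SE; adjusted p = 0.13), and without high-pressure library 1 it was 1.24 with an adjusted p of 0.041.

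TEK was measured at 12.7, 35.5 and 48.0 CPM under high cuff pressure and at 26.1, 16.3 and 13.0 CPM in the controls. High-pressure library 1 had the lowest TEK of all 6 libraries, and the log2 difference was 0.80 ± 0.49 (SE; adjusted p = 0.30 in edgeR). VWF was the most abundant of the 10 genes, with 293, 643 and 717 CPM against 412, 572 and 151 CPM. Its groups overlapped widely, and the log2 difference was 0.54 ± 0.52 (SE; adjusted p = 0.51). KDR was at 12.6, 12.6 and 12.2 CPM under high cuff pressure, nearly one level, and at 11.6, 7.21 and 20.4 CPM in the controls. The log2 difference of KDR was −0.07 ± 0.39 (SE; adjusted p = 0.93), and its sign turned with limma-voom (0.07) and without control library 3 (0.41).

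**Figure D2:**
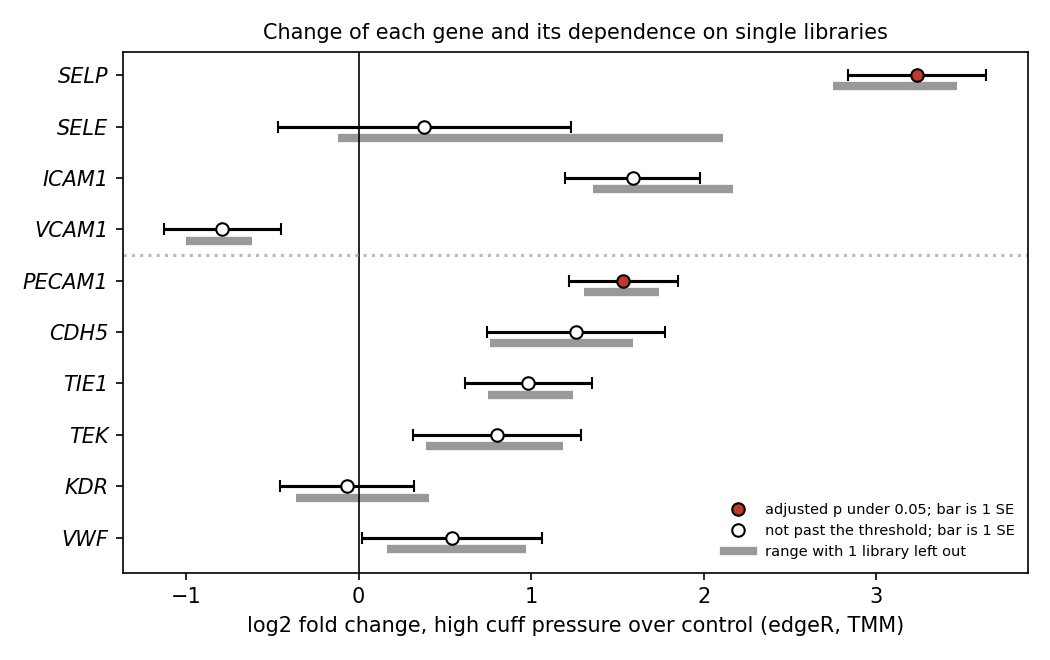
Log2 fold change of each gene, high cuff pressure over control, from the edgeR fit, with black bars for 1 SE, filled circles for an adjusted p under 0.05 and grey bars for the range over the 6 fits that left out a library. SELP at 3.24 and PECAM1 at 1.53 are filled, VCAM1 at −0.79 is the only member whose whole grey bar lies below 0, and the grey bars of SELE and KDR cross 0.

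Counted over the set, 2 of the 10 genes, SELP and PECAM1, were called higher, beside 3.67% of all genes tested, and none was called lower, beside 1.62%. At an unadjusted p under 0.05 in edgeR a single member, VCAM1, was lower. Of all 13724 genes tested, 4015 were under 0.05, counting both directions. DESeq2 also called 0 members lower, beside 1196 lower of the 14653 genes with an adjusted p. High-pressure libraries lay above all controls for 3 members, beside 18.6% of all genes tested, and below all controls for 1 member, beside 18.7%. Because the genes were chosen on this contrast, nothing is read from these shares. The authors' deposited table gave q-values of 5.63e-11 for SELP, 0.00314 for PECAM1 and 0.00525 for ICAM1. In the authors' deposited table the other 7 members had q-values from 0.0949 for CDH5 to 0.996 for KDR.

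The identity genes lie on separate chromosomes in the authors' annotation. PECAM1 spans 49195665 to 49263183 of chromosome 19, TIE1 123339073 to 123348145 of chromosome 13, TEK 26309584 to 26438157 of chromosome 1 and VWF 32066187 to 32221565 of chromosome 8, all on the minus strand. KDR spans 93608315 to 93652418 of chromosome 15 and CDH5 21872910 to 21900934 of chromosome 5, both on the plus strand.

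Apart from KDR under high cuff pressure, the identity genes did not hold one level within either group. Across the 6 libraries the highest CPM exceeded the lowest by 8.10-fold for CDH5, 5.26-fold for PECAM1 and 4.75-fold for VWF. It did so by 3.93-fold for TIE1, 3.77-fold for TEK and 2.83-fold for KDR. These ranges include the difference between the groups. Within the high cuff pressure group, PECAM1, TIE1, TEK, CDH5 and VWF were each lowest in library 1, and within the controls each was lowest in library 3. CDH5 lay 0.85 below its group mean in high-pressure library 1 and 0.95 below it in control library 3 on the log2 scale, and VWF lay 0.81 and 1.12 below. KDR took another course, with 0.76 above its group mean in control library 3 and values within 0.03 of the mean in all high-pressure libraries. Other cell types had low sums in some of the same libraries. The pericyte markers summed to 73.4, 168 and 303 CPM in high-pressure libraries 1, 2 and 3 and to 188, 251 and 162 CPM in control libraries 1, 2 and 3, lowest where the 5 genes were. The fibroblast markers summed to 316, 1198 and 1746 CPM against 1442, 2475 and 1643 CPM, lowest in high-pressure library 1 and in control library 1. These are values in 6 libraries that share RNA input, depth and scaling across genes, and no test was made of them.

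**Figure D3:**
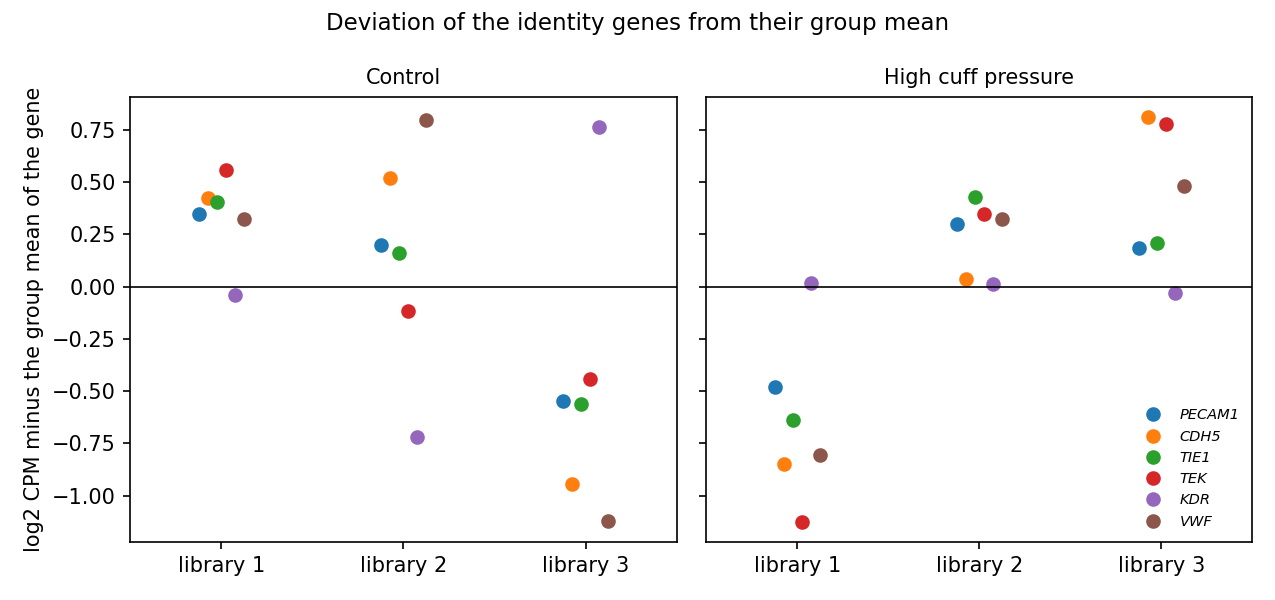
Deviation of log2 CPM from the group mean for each identity gene in each of the 6 libraries. PECAM1, TIE1, TEK, CDH5 and VWF are lowest in high cuff pressure library 1 within their group and in control library 3 within theirs, while KDR is near 0 in all high-pressure libraries and highest in control library 3.

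A ratio within a library needs no scaling between libraries, so each adhesion receptor was also set against the geometric mean of the counts of the 6 identity genes. For SELP this ratio was 1.55, 1.74 and 0.645 under high cuff pressure and 0.231, 0.236 and 0.269 in the controls. The controls held nearly one value and every high-pressure library was above them, by 4.90-fold on geometric means. For ICAM1 the ratio was 2.34, 1.73 and 1.13 against 1.33, 0.599 and 0.966, so the groups overlapped and the 3.00-fold difference in CPM was 1.81-fold here. Set against PECAM1 alone, ICAM1 differed by 1.12-fold and overlapped, whereas SELP differed by 3.03-fold and did not. Set against CDH5 alone, SELP differed by 3.75-fold and the groups overlapped, with 0.880 in high-pressure library 3 and 0.891 in control library 3.

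VCAM1 relative to the identity genes was 0.144, 0.117 and 0.102 under high cuff pressure and 0.358, 0.389 and 0.368 in the controls. The groups were wider apart than in CPM, with a fold of 0.323. Against PECAM1 alone the VCAM1 ratio was 0.0411, 0.0363 and 0.0384 in the high-pressure libraries and 0.184, 0.194 and 0.201 in the controls, a fold of 0.200. Against the other single identity genes the fold ran from 0.247 with CDH5 to 0.560 with KDR, and the groups overlapped with KDR alone. The ratio of SELE to the identity genes was 0.102, 0.0605 and 0.103 against 0.245, 0.0227 and 0.0723, which overlapped. PECAM1 itself, although part of the denominator, was 3.501, 3.24 and 2.67 times the geometric mean under high cuff pressure and 1.94, 2.01 and 1.83 times in the controls. Against single identity genes PECAM1 did not overlap between groups with TIE1, KDR and VWF, and it overlapped with CDH5 and TEK. These ratios are descriptions with no test.

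**Figure D4:**
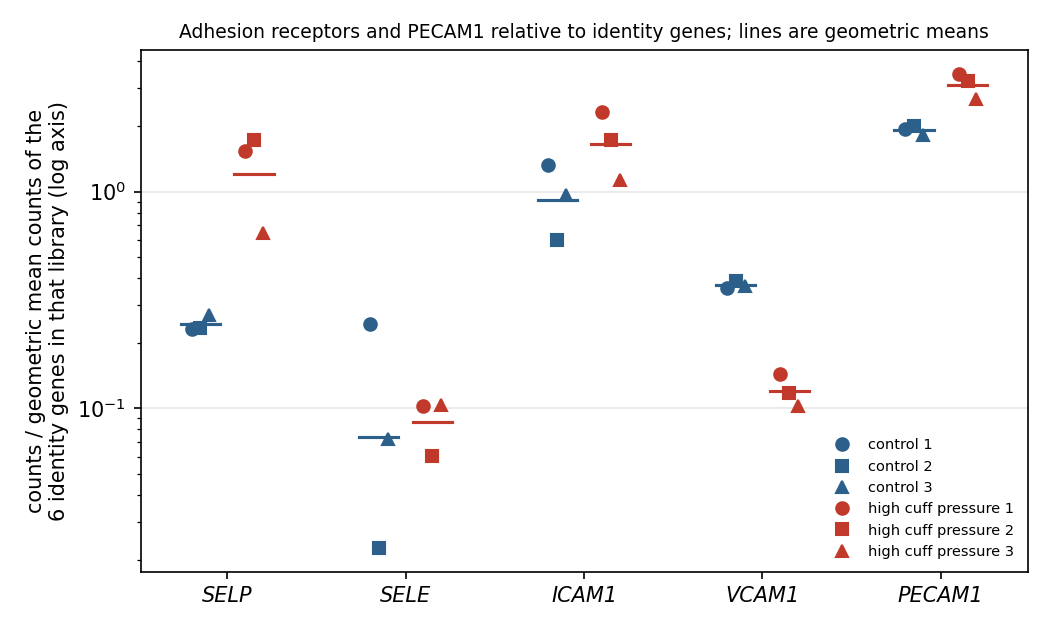
Counts of each adhesion receptor and of PECAM1 divided by the geometric mean counts of the 6 identity genes in the same library, on a log axis, with lines for geometric means of the groups. SELP and PECAM1 lie higher in all high cuff pressure libraries, VCAM1 lies lower in all of them, and SELE and ICAM1 overlap.

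Summed over the genes, the 4 adhesion receptors held 0.306, 0.246 and 0.138 reads per identity read under high cuff pressure and 0.150, 0.0606 and 0.153 in the controls. High-pressure library 3 lay below control libraries 1 and 3, so the groups overlapped. The mean log2 ratio was 0.97 higher under high cuff pressure, a fold of 1.95, with an SD of 0.60 within the high-pressure group and 0.76 within the controls. VWF made up 61.0% to 81.6% of the identity reads and ICAM1 47.4% to 61.4% of the adhesion reads. The log2 difference was 0.44 when each gene had equal weight, 0.48 without SELP, 0.56 without VWF, 1.03 without ICAM1 and 1.12 without PECAM1, and 0.53 to 1.298 when a library was left out, lowest without control library 2.

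Levels were compared between genes in FPKM, which divides by gene length. In the controls the mean order was VWF at 50.9 FPKM, ICAM1 at 12.2, PECAM1 at 10.2, TIE1 at 8.69, CDH5 at 5.41, TEK at 4.68, KDR at 3.70, VCAM1 at 2.84, SELP at 2.71 and SELE at 1.21 FPKM. Neighbours in this order overlapped between libraries, except VWF and ICAM1. Under high cuff pressure VWF stayed first at 56.4 FPKM, followed by ICAM1 at 28.7, PECAM1 at 22.7 and SELP at 19.2 FPKM, and TIE1, CDH5, TEK and KDR kept their order from 13.1 to 2.67 FPKM. SELE at 1.28 and VCAM1 at 1.26 FPKM came last, and KDR and SELE were the only neighbours without overlap. Within single libraries SELP ranked 4, 3 and 6 of the 10 genes under high cuff pressure and 9, 8 and 8 in the controls, while VCAM1 ranked 9, 9 and 10 against 7, 7 and 9.

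The partners of these receptors were described from lists of related genes. Beside each count of genes called by edgeR below stand 3.67% of all genes tested called higher and 1.62% called lower. DESeq2 called 1415 higher and 1196 lower of 14653 genes with an adjusted p. An unadjusted p under 0.05 in edgeR was found for 4015 of the 13724 genes tested. The lists were chosen with earlier results of these data known, so nothing is read from these counts. Of the 6 fits that left out a library, those without control library 2 or control library 3 called no gene at all, and each call given below with its log2 value was kept in 1 to 3 of the 6. Of 12 leukocyte counter-receptor genes tested, 2 rose, none fell, and the median log2 fold change was 0.57 (0.18 with total counts). Among them was ITGB2, the shared chain of LFA-1 and Mac-1, the leukocyte integrins that bind ICAM1. ITGB2 was measured at 184, 92.5 and 57.0 CPM against 23.6, 17.4 and 17.0 CPM and rose by 2.53 on the log2 scale (adjusted p = 0.029 in edgeR). ITGA4, a chain of the VCAM1 receptor, overlapped between groups with a log2 difference of −0.47 (adjusted p = 0.47). Of 9 tested genes that glycosylate or sulfate selectin ligands none was called in either direction by edgeR or DESeq2, and 1 had an unadjusted p under 0.05 in edgeR. The selectin ligand SELPLG was not analysed here.

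A list of cytokine and NF-kB genes had 18 genes tested, of which 5 rose and none fell, beside 3.67% and 1.62% of all genes. It mixed receptors and NF-kB subunits with feedback genes and secreted factors such as CSF3 and CXCL8, so its counts are not of inputs to adhesion receptors alone. The median was 0.43, and it was 0.044 with total counts and 0.21 without high-pressure library 1. TNFRSF1B, a TNF receptor, was at 65.3, 83.9 and 55.7 CPM against 22.05, 16.7 and 16.3 CPM and rose by 1.90 on the log2 scale (adjusted p = 0.017 in edgeR). CSF3, which encodes the neutrophil growth factor G-CSF, was at 144, 25.3 and 33.4 CPM against 1.88, 0.257 and 0.802 CPM and rose by 6.14 (adjusted p = 0.022). NFKB2, an NF-kB subunit, rose by 1.03 (adjusted p = 0.039), a call kept in 5 of the 9 alternative fits on all libraries and lost with total counts. CXCL8, the neutrophil chemokine, and TLR4 also passed, whereas the NF-kB feedback gene TNFAIP3 had a log2 difference of 0.18 and did not. The NF-kB subunit NFKB1 was below all controls in every high-pressure library, with a log2 difference of −0.54 (adjusted p = 0.16 in edgeR). REL, another subunit, overlapped with a log2 difference of −0.57. In all, 11 of the 18 genes had a positive log2 fold change.

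In the VEGF and angiopoietin pathway, to which KDR, TIE1 and TEK belong, 14 other genes were tested, of which none rose, 1 fell, and the median was −0.27 (−0.65 with total counts). The gene that fell was ANGPT1, the activating ligand of TEK made mostly by cells around the vessel. It was measured at 2.56, 4.71 and 5.61 CPM under high cuff pressure and at 13.5, 17.2 and 18.9 CPM in the controls, with no overlap, and fell by 1.94 on the log2 scale (adjusted p = 0.034 in edgeR). The call was lost in 4 of the 6 fits that left out a library. ANGPT2, the stored antagonist of TEK, and VEGFA, the ligand of KDR, overlapped between groups with log2 differences of −0.44 and −0.10.

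Of 36 other endothelial identity genes tested, 2 rose and 1 fell, beside 3.67% and 1.62% of all genes tested. A positive log2 fold change was seen in 27 of the 36, beside 49.5% of all genes tested. The median was 0.83 against −0.01 for all genes, 0.44 with total counts, where the median of all genes was −0.40, 0.43 without high-pressure library 2 and 0.51 without control library 3. The genes that rose were NOS3, the endothelial nitric oxide synthase, with 2.64 (adjusted p = 0.047 in edgeR), and PROCR, the endothelial protein C receptor, with 1.10 (adjusted p = 0.042), a call kept in 5 of the 9 alternative fits on all libraries and lost with total counts. NOS3 was at 10.7, 40.4 and 23.3 CPM against 6.75, 2.57 and 2.62 CPM. The gene that fell was NR2F2, a transcription factor of venous endothelium that stromal cells also express, with −0.97 (adjusted p = 0.047 in edgeR). EPHB4, which also marks venous endothelium, went the other way. It overlapped between groups with a log2 difference of 0.84 (adjusted p = 0.20 in edgeR). Some other genes of this list, chosen after their values were seen, varied widely without passing. The gap junction gene GJA4 was at 5.72, 36.7 and 30.8 CPM against 6.92, 4.25 and 2.33 CPM, and GJA5 at 5.42, 24.7 and 25.2 CPM against 5.81, 4.89 and 2.48 CPM, both low in high-pressure library 1, whereas EFNB2, which like them marks arterial endothelium, overlapped with a log2 difference of −0.09. The lymphatic markers had no common direction. LYVE1 was at 10.4, 13.1 and 13.6 CPM against 6.49, 6.18 and 2.19 CPM, PROX1 overlapped with a log2 difference of −0.13, and FLT4 was at 12.6 to 26.1 CPM against 29.2 to 46.3 CPM. None of these 3 passed.

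Among 16 other junction and capture receptors tested, 1 rose, none fell, and the median was 0.13. DESeq2, total counts and both FPKM settings each called 1 higher and 1 lower. ALCAM was below all controls in every high-pressure library, with a log2 difference of −1.70 (adjusted p = 0.068 in edgeR). The gene that rose was PVR, a nectin-like receptor at cell contacts, with 58.6, 58.4 and 46.8 CPM against 19.998, 16.7 and 11.2 CPM, a log2 change of 1.77 (adjusted p = 0.022 in edgeR). Of 11 genes of the Weibel-Palade body and VWF handling, none was called in either direction by edgeR or DESeq2, and the median was 0.24. An unadjusted p under 0.05 in edgeR was found for 2 of the 11, beside 4015 of all 13724 genes tested. A list of proteases that can shed surface receptors, with the protease inhibitor TIMP3, had 8 genes tested, of which MMP9 rose and MMP2 fell. MMP9, an enzyme that neutrophils store, was at 0, 0.129 and 0.219 CPM in the controls. Under high cuff pressure MMP9 was at 21.98, 7.30 and 2.05 CPM. MMP2 fell by 1.08 on the log2 scale. The medians of the junction, selectin ligand, Weibel-Palade and shedding lists turned negative with total counts, at −0.28, −0.30, −0.16 and −0.37. In that scaling the median of all genes was −0.40, so each of these list medians stayed above it.

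**Figure D5:**
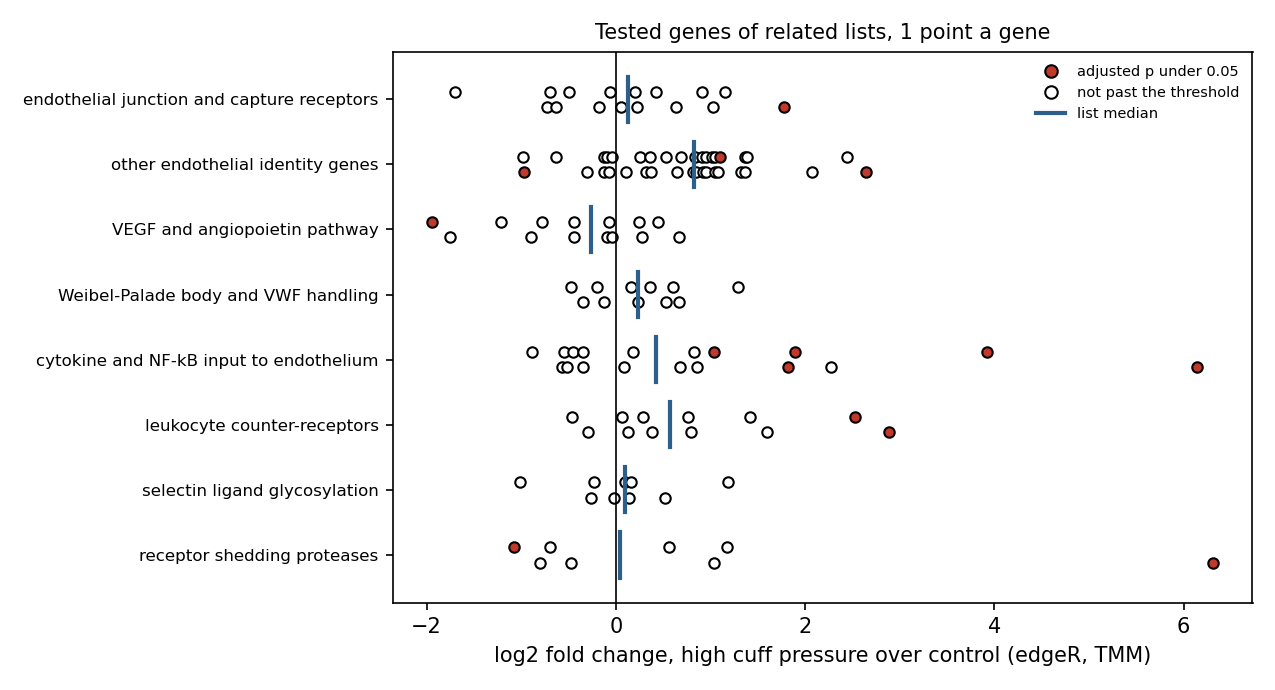
Log2 fold change, high cuff pressure over control, of each tested gene in 8 related lists, with filled circles for an adjusted p under 0.05 and a line for each list's median. The list of other endothelial identity genes has the highest median, 0.83, and the VEGF and angiopoietin list the lowest, −0.27.

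Markers of other cells moved unevenly beside these genes. Of 8 neutrophil markers tested 6 rose, and of 12 macrophage markers 4 rose. Of 10 fibroblast markers 2 fell, LUM and OGN, and the sums of the fibroblast and pericyte markers are given above. The 6 airway epithelium markers with a row summed to 1881 to 3947 CPM against 1475 to 1541 CPM. Within this sum KRT5 and KRT8 were higher in all high-pressure libraries. EPCAM, FOXJ1, CDH1 and TP63 overlapped, with log2 differences from −0.34 for EPCAM to 0.03 for TP63, and the median of the list was −0.04. None of the pericyte or epithelium markers passed in edgeR. At an unadjusted p under 0.05 in edgeR there were 0 and 2, beside 4015 of the 13724 genes tested. DESeq2 called 0 and 2, beside 1415 higher and 1196 lower of 14653 genes with an adjusted p. The part that the share of each cell type had in the endothelial values was not tested.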

How the data were processed

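Tracheal mucosa polyA RNA was sequenced as 6 libraries, 3 per group, grouped and numbered by library name. HISAT2 2.0.4, StringTie 1.3.3b and edgeR are listed, with no role, in the submitters' processing notes; the sources used here give no genome build, annotation, strand setting or counting option. Raw read counts for each gene, and FPKM computed by the authors, stand side by side in 1 deposited table, per the file headers. A second deposited table gives the authors' p-values and q-values. Gene symbols and positions come from the deposited table, and 13436 rows carry no symbol.

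The main test used edgeR 4.0.16 (R 4.3.3) on the deposited counts: filterByExpr, TMM factors, robust glmQLFit and glmQLFTest, with Benjamini-Hochberg adjustment over 13724 genes and a threshold of 0.05. CPM carry the TMM factors. A prior count of 2 entered log2 CPM. Each standard error is the log2 fold change over the square root of F. Alternatives used DESeq2 1.42.0, limma 3.58.1, other scalings and filters, log2(FPKM + 1) and log2(FPKM + 0.1) where 3 libraries reached at least 1 FPKM, the replicate number as a block, and fits leaving out each library.

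Members and lists were chosen with earlier results of these data known. Named genes are all members and, per related list, up to 3 with the smallest p past the threshold. Others are stated as chosen after seeing values, or were named after seeing them for their pathway role or their part in a marker list. Libraries of a group differed from each other by far more than sampling noise, with a chi-square of 56.1 to 137 per degree of freedom. Precision of low genes is limited by depth, since 3 counts correspond to 0.208 to 0.286 CPM before TMM scaling. The promoter motif search that had been planned was not run, since no sequences were used here. A gene of the related lists is counted but not reported here by name.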

Additional observations from a re-analysis of the deposited data

How the results depend on the processing

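Of 518 values recomputed under the alternatives, 368 kept their direction and side of the threshold or, for a count, stayed within 1.5 times. Another 128 lost the threshold or, for a count, fell by more than that, 16 gained it or rose by more, and 6 changed sign. The count of genes higher, 503, was 1415 with DESeq2, 198 with the replicate block and 0 to 1362 when a library was left out. The count lower, 222, was 1241 with total counts, 1196 with DESeq2, 1745 and 1446 with log2(FPKM + 1) and log2(FPKM + 0.1), 46 with the replicate block and 0 to 1261 when a library was left out. No gene was called in either direction without control library 2 or without control library 3 in edgeR, where 2691 and 2496 genes had an unadjusted p under 0.05; DESeq2 was run on all libraries only. Members called higher, 2, were 1 with the replicate block and 0 to 4 when a library was left out. SELE ranged from −0.12 to 2.11 when a library was left out. KDR was 0.072 with limma-voom, 0.055 with the replicate block and −0.36 to 0.41 when a library was left out. The cause of these changes was not tested, beyond fewer samples in the fits that leave one out. PECAM1 had an adjusted p of 0.086 with the replicate block. Same-numbered libraries of the groups had correlations of −0.28, −0.20 and −0.23 between their deviations from the group means. Deviations centred on a group mean depend on each other, so these values cannot decide whether the libraries were paired. The summed ratio of adhesion to identity reads stayed within 1 SD of 0.97, from 0.44 to 1.12, and from 0.53 to 1.298 when a library was left out. The FPKM settings gave no value for SELE or MMP9, which missed their filter. Depth limits genes with few reads, such as SELE with 12 to 112 reads per library and MMP9 with 0 to 3 in the controls. With the replicate block, none of the other endothelial identity genes was called; the adjusted p was 0.093 for NOS3, 0.15 for PROCR and 0.16 for NR2F2.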
